A study of Rattus norvegicus with 6 samples.

Results

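Immediate early genes and the Nr4a receptors were followed through 6 clonal INS-1 lines, the cells of a rat insulinoma that serve as a proxy for pancreatic beta-cells. The members were taken by gene symbol and are Nr4a1, Nr4a2, Nr4a3, Fos, Fosb, Jun, Junb, Egr1, Ier2 and Atf3, which make 10 of the 32900 features in the count table, of which 21250 had at least 1 read. The study deleted the domain of imprinted genes whose loss causes Prader-Willi syndrome (PWS) and asked how beta-cells change without it. Control lines 5-9, 2 and 16 carried the deletion on the maternal allele, on which these genes are silent. PWS lines 3, 19-1 and 19-4 carried deletions on both alleles. All 6 lines came from INS-1(832/13)::mCherry cells, so that controls and PWS lines alike held a human INS-neoR transgene and a mouse Ins2-C-mCherry transgene, and all grew in medium with 7.5 mM glucose with no treatment. Control lines 2 and 16 and all PWS lines were derived from line 5-9, and lines 19-1 and 19-4 were both subcloned from line 19, which leaves 2 clones behind the 3 PWS lines. Each line gave 1 library of total RNA depleted of rRNA, so p-values measure the spread between lines and the spread between cultures of a line is unknown.

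Immediate early genes are switched on within minutes of a stimulus, without the need for new protein, by factors such as CREB and SRF that are already present when calcium, cAMP or growth factor signals arrive. Their mRNAs are short-lived, so their levels follow recent signalling. Nr4a1, Nr4a2 and Nr4a3 encode orphan nuclear receptors that act without a known hormone. Fos, Fosb, Jun and Junb encode subunits of the AP-1 transcription factor, Atf3 a related leucine zipper protein of the stress response, Egr1 a zinc finger transcription factor and Ier2 a small nuclear protein. In beta-cells, glucose and depolarization are known inducers of many of these genes.

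Between 26016478 and 36084261 reads were counted per line. Values are normalized counts, which are reads divided by a size factor for each line and not corrected for gene length, so levels are compared between lines and not between genes. The deletion check, Snurf, had between 3159 and 3992 normalized counts in the control lines and between 0 and 4 reads in the PWS lines. Beta-cell transcripts were abundant, with Ins1 between 133488 and 282807 normalized counts, and 4 of the 12 markers of other cells (Ptprc, Sst, Dcn and Prss1) had no read in any line. The summed level of the 11 found in the table was between 38.6 and 52.2 normalized counts in 5 lines and 134 in PWS line 19-4, where the glucagon gene Gcg gave 100.01. Without Gcg the sum was between 31.6 and 38.6 in the 6 lines. Mitochondrially encoded genes took between 2.26% and 2.47% of the counted reads. Whether these differences bear on the immediate early genes was not tested.

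Promoter sequence was searched for the sites through which such signals are known to act. Windows of 300 bases, from 250 before to 50 after the start of the gene (RefSeq, build GRCr8), were matched by symbol for 6 members, namely Nr4a1, Nr4a2, Fosb, Junb, Egr1 and Ier2. Each window was searched on both strands for the cAMP response element TGACGTCA, its core TGACG, the CArG box to which SRF binds, the AP-1 site TGANTCA and the EGR site GCGTGGGCG. A match to the full element also holds the core on each strand. The 250 bases before the start are shown for Nr4a1, which had the most cores, for Ier2, which had the full element, and for Junb, which had a single core, with matches in capitals (CGTCA is the core on the other strand).
Nr4a1: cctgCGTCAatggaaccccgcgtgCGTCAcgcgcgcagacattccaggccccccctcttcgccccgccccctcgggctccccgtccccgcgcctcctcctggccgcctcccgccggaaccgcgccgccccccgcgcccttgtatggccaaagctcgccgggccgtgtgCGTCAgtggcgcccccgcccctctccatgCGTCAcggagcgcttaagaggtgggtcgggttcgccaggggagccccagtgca
Ier2: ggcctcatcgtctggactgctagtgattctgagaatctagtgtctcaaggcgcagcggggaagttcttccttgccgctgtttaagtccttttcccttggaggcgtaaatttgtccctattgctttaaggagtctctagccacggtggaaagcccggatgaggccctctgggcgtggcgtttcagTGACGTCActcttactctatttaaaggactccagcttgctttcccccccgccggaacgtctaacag
Junb: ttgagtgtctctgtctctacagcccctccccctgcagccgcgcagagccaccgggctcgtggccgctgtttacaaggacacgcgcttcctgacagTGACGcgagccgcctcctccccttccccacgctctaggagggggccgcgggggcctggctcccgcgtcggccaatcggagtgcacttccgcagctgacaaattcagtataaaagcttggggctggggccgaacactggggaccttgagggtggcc
These lie on the plus strand at chr7:134259888-134260137 for Nr4a1, chr19:40399123-40399372 for Ier2 and chr19:40080876-40081125 for Junb.

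In Nr4a1 the cores began at positions -246, -226, -82 and -53 from the start of the gene, and in Junb the core began at -155. The full element of Ier2 began at -66. Egr1, whose product reads out growth factor and calcium signals, had CArG boxes at -105 and -83 and cores at -135 and -66. Nr4a2 had a core at -8, and the Fosb window had no match to any of these motifs. The core was thus found in 5 of 6 windows, against 21.2% of the 33469 promoter windows of the same length in the table. The full element was found in 1 of 6 (1.83% of all windows) and the CArG box in 1 of 6 (1.64%). No window of the 6 held the AP-1 site (7.33% of all windows) or the EGR site (0.544%). A match describes letters in this window and is not evidence of binding.

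None of the 10 immediate early genes differed between PWS and control INS-1 lines by the test, and control and PWS lines overlapped for all 10. On average 8 members had the lower level in PWS lines, the median log2 fold change over all members being -0.36, and those of Egr1 and Atf3 were higher. For 9 of 10 members the lines differed more among controls than among PWS lines. Jun was the extreme case, with a level in control line 2 that was 3.81-fold that of the next line.

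**Figure D1:**
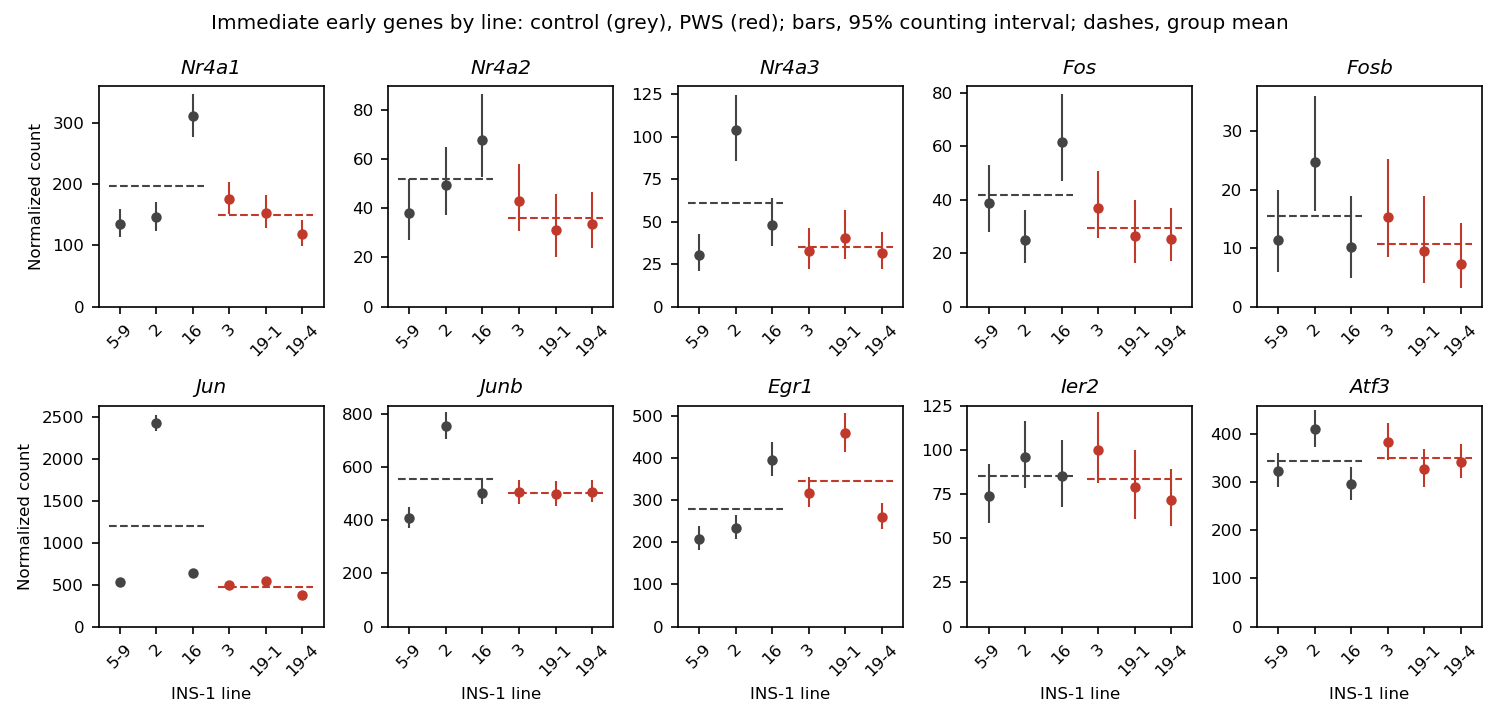
Normalized count (linear axis from 0) of each of the 10 genes in control lines 5-9, 2 and 16 (grey) and PWS lines 3, 19-1 and 19-4 (red), with 95% counting intervals and the mean of each group as a dashed line. Jun in control line 2 stands at 2433, while the other 5 lines lie between 372 and 639.

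With limma on log2(normalized count + 1), 0 of 10 members had an adjusted p-value under 0.05, where 0.257% of the 15579 genes tested did. At an unadjusted p-value under 0.05, limma called 0 of 10, against 11.3% of the genes tested. That count was 3 without control line 5-9 (Nr4a2, Nr4a3 and Jun), beside 1368 of the 15579 genes tested. It was 1 without control line 2 (Fos), beside 1606 genes, and 2 without control line 16 (Egr1 and Jun), beside 1768 genes. On the recovered reads, edgeR and DESeq2 also called 0 of 10 at an adjusted p-value under 0.05, against 0.205% and 1.46% of the genes. At an unadjusted p-value under 0.05, edgeR called only Jun, against 11.4% of the genes tested, and DESeq2 none of the 10, against 10.4%. The groups of lines did not overlap for 17.4% of the genes tested and for 0 of the 10 members. A log2 fold change below 0 was found for 8 of 10 members and for 50.7% of the genes tested, whose median was -0.00284. Without control line 2 the median of the members was -0.10, and without control line 16 it was -0.12.

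**Figure D2:**
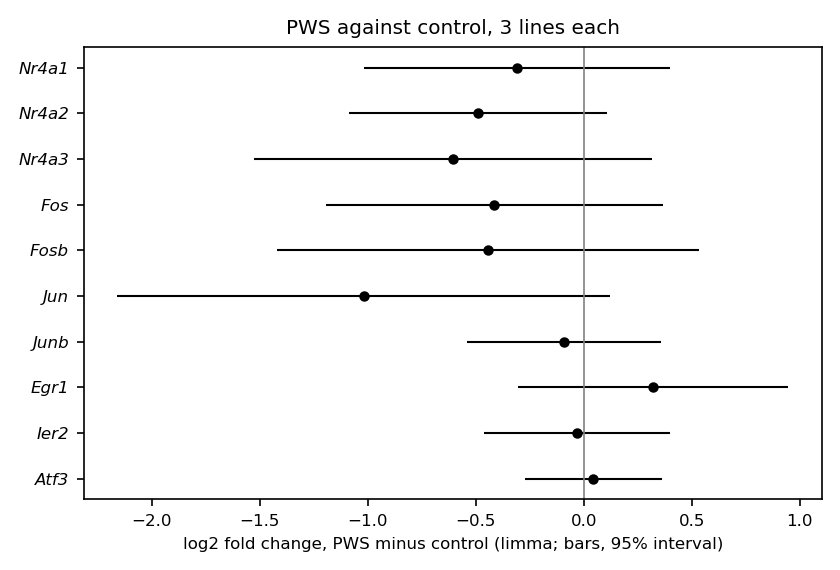
Log2 fold change of each gene, PWS minus control, from limma (points) with its 95% interval (bars), 3 lines in each group. All 10 intervals span 0, from the widest for Jun (-2.16 to 0.12) to the narrowest for Atf3 (-0.27 to 0.36).

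The Nr4a receptors were each highest in a control line, but not in the same one. Nr4a1 (ENSRNOG00000007607) measured 135, 146 and 310 normalized counts for lines 5-9, 2 and 16 (control), against 176, 153 and 119 for lines 3, 19-1 and 19-4 (PWS). Control line 16 stood 1.77-fold above PWS line 3, the next in order, and the other 5 lines were interleaved. Group means were 197 ± 98.2 (control) and 149 ± 28.4 (PWS; SD, n = 3 each), a log2 fold change of -0.31 (SE 0.31, limma adjusted p = 0.754). The direction rested on line 16, since without it the log2 fold change was 0.07.

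Nr4a2 (ENSRNOG00000005600), best known for its part in dopamine neurons, measured 38.0, 49.6 and 67.8 normalized counts for lines 5-9, 2 and 16 (control), against 42.9, 31.1 and 33.6 for lines 3, 19-1 and 19-4 (PWS). Line 16 was again highest, but its 95% counting interval (52.4 to 86.2) overlapped that of control line 2 (37.2 to 64.7). Nr4a2 averaged 51.8 ± 15.0 (control) and 35.9 ± 6.20 (PWS; SD, n = 3 each), and the log2 fold change was -0.49 (SE 0.26, limma adjusted p = 0.523). Without control line 16 the value was -0.28.

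Nr4a3 (ENSRNOG00000005964), the paralogue that was highest in line 2, measured 30.4, 104 and 48.3 normalized counts for lines 5-9, 2 and 16 (control), against 32.7, 40.7 and 31.8 for lines 3, 19-1 and 19-4 (PWS). Control line 2 was 2.15-fold above line 16, while line 5-9, from which the other lines derive, had the lowest value. Its counting interval (20.8 to 42.9) overlapped those of PWS lines 19-4 (22.2 to 44.3) and 3 (22.3 to 46.1), so the lowest line was not resolved. Means were 60.8 ± 38.2 (control) and 35.0 ± 4.87 (PWS; SD, n = 3 each), a log2 fold change of -0.60 (SE 0.40, limma adjusted p = 0.614). Without control line 2 it was -0.13, and without control line 5-9 it was -1.003.

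Fos and Fosb, the AP-1 subunits that pair with Jun proteins, were among the least counted members, with between 22 and 60 reads per line for Fos and between 8 and 27 for Fosb. Fos (ENSRNOG00000008015) measured 38.9, 24.8 and 61.6 normalized counts for lines 5-9, 2 and 16 (control), against 36.8, 26.3 and 25.5 for lines 3, 19-1 and 19-4 (PWS). By value line 16 was highest and line 2, the line in which Jun was highest, was lowest. Neither place was resolved, since the counting interval of line 16 (47.0 to 79.3) overlapped that of line 5-9 (27.9 to 52.8). That of line 2 (16.3 to 36.1) overlapped those of PWS lines 19-1 (16.5 to 39.8) and 19-4 (16.9 to 36.8). The log2 fold change of Fos was -0.41 (SE 0.34, limma adjusted p = 0.688), from means of 41.8 ± 18.6 and 29.5 ± 6.29 (SD, n = 3 each). Leaving out control line 16 gave -0.092, and leaving out control line 2 gave -0.73.

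Fosb (ENSRNOG00000046667) measured 11.4, 24.8 and 10.3 normalized counts for lines 5-9, 2 and 16 (control), against 15.3, 9.57 and 7.27 for lines 3, 19-1 and 19-4 (PWS). Line 2 was highest, yet its counting interval (16.3 to 36.1) overlapped that of PWS line 3 (8.57 to 25.3). At this depth line 2 lay clear only of PWS line 19-4 (3.14 to 14.3), and the order of the other lines was not resolved. The log2 fold change was -0.45 (SE 0.43, limma adjusted p = 0.737), from means of 15.5 ± 8.07 (control) and 10.7 ± 4.14 (PWS; SD, n = 3 each). Leaving out control line 2 gave -0.070, and leaving out PWS line 3 gave -0.71.

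Jun (ENSRNOG00000026293), the AP-1 subunit phosphorylated by stress kinases, measured 534, 2433 and 639 normalized counts for lines 5-9, 2 and 16 (control), against 496, 539 and 372 for lines 3, 19-1 and 19-4 (PWS). The counting interval in line 2 ran from 2342 to 2528, far above the next line, 16 (590 to 691), and line 19-4 lay lowest. Reads counted at a single place and feature gave a ratio of 3.79 between line 2 and the next line, and RSEM counting gave 3.82. These countings share the same library, and no second library of line 2 was analysed here.

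Means for Jun were 1202 ± 1068 (control) and 469 ± 86.9 (PWS; SD, n = 3 each), a log2 fold change of -1.02 (SE 0.50, 95% interval -2.16 to 0.12, limma adjusted p = 0.492). With edgeR the log2 fold change was -1.36 (adjusted p = 0.401), and with DESeq2 it was -1.36 (adjusted p = 0.498). Without control line 2 the limma value was -0.33. Of the 15579 genes tested, 8 (0.0514%) were highest in line 2 by at least the fold of Jun.

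Junb (ENSRNOG00000042838), a partner of Fos proteins that tempers the action of Jun, measured 410, 755 and 503 normalized counts for lines 5-9, 2 and 16 (control), against 506, 499 and 508 for lines 3, 19-1 and 19-4 (PWS). Line 2 was 1.49-fold above the next line and line 5-9 was lowest, while the 3 PWS lines and line 16 could not be told apart by their counting intervals. The 3 PWS values lay closer together than the counting intervals of any of them, which ran from 452 to 553. Means were 556 ± 179 (control) and 504 ± 5.09 (PWS; SD, n = 3 each). The log2 fold change was -0.09 (SE 0.20, limma adjusted p = 0.899), and without control line 2 it was 0.15.

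Egr1 (ENSRNOG00000019422) was the member with the largest positive difference. It measured 209, 235 and 395 normalized counts for lines 5-9, 2 and 16 (control), against 317, 459 and 261 for lines 3, 19-1 and 19-4 (PWS). PWS line 19-1 and control line 16 were highest, with counting intervals that overlapped (414 to 507 and 357 to 437), and the subclones 19-1 and 19-4 of the same line differed by more than their intervals. Means were 280 ± 101 (control) and 346 ± 102 (PWS; SD, n = 3 each), a log2 fold change of 0.32 (SE 0.27, limma adjusted p = 0.698). The value fell to 0.098 without PWS line 19-1 and rose to 0.60 on leaving out control line 16, with 0.14 on leaving out line 5-9.

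Ier2 (ENSRNOG00000054344), which carries the full cAMP response element shown above, varied little. It measured 74.1, 96.4 and 85.2 normalized counts for lines 5-9, 2 and 16 (control), against 100.05, 78.9 and 71.8 for lines 3, 19-1 and 19-4 (PWS). The highest line, PWS line 3, was 1.39-fold above the lowest, PWS line 19-4, so both ends of the range were PWS lines. Means were 85.2 ± 11.2 and 83.6 ± 14.7 (SD, n = 3 each), with a log2 fold change of -0.03 (SE 0.19, 95% interval -0.46 to 0.40, limma adjusted p = 0.965).

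Atf3 (ENSRNOG00000003745), a gene of the integrated stress response, had the smallest residual SD of the members, although among genes of like mean Ier2 ranked lower. It measured 324, 409 and 296 normalized counts for lines 5-9, 2 and 16 (control), against 383, 328 and 343 for lines 3, 19-1 and 19-4 (PWS). Control lines held both the highest and the lowest value. Means were 343 ± 59.2 and 351 ± 28.5 (SD, n = 3 each), a log2 fold change of 0.04 (SE 0.14, 95% interval -0.27 to 0.36, limma adjusted p = 0.935). Of its reads 87.3% aligned to a single place and feature, against at least 99.4% for each of the other members.

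The spread between lines of a group set the members apart from most genes. Their residual SD within groups, on the log2 scale, had a median of 0.474, against 0.152 over all genes tested, and it was above that median for all 10. It exceeded 0.4 for 6 of 10 members and for 13.7% of the genes tested. Jun (SD 0.868) lay at percentile 97.9 of all genes tested, Nr4a3 (0.635) at 94.9 and Nr4a1 (0.508) at 91.3, while Ier2 (0.218) lay at 66.9 and Atf3 (0.189) at 61.0.

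Low counts add to this spread, so each member was also placed among genes of like mean. Jun then lay at percentile 99.8, Egr1 at 96.4, Nr4a1 at 94.9, Junb at 94.4 and Nr4a3 at 92.1. Fos came to 80.2, Fosb to 70.4, Atf3 to 69.4, Nr4a2 to 58.9 and Ier2 to 43.9. For 9 of 10 members, all but Ier2, the log2 SD was larger among control lines than among PWS lines, as it was for 51.7% of the genes tested.

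**Figure D3:**
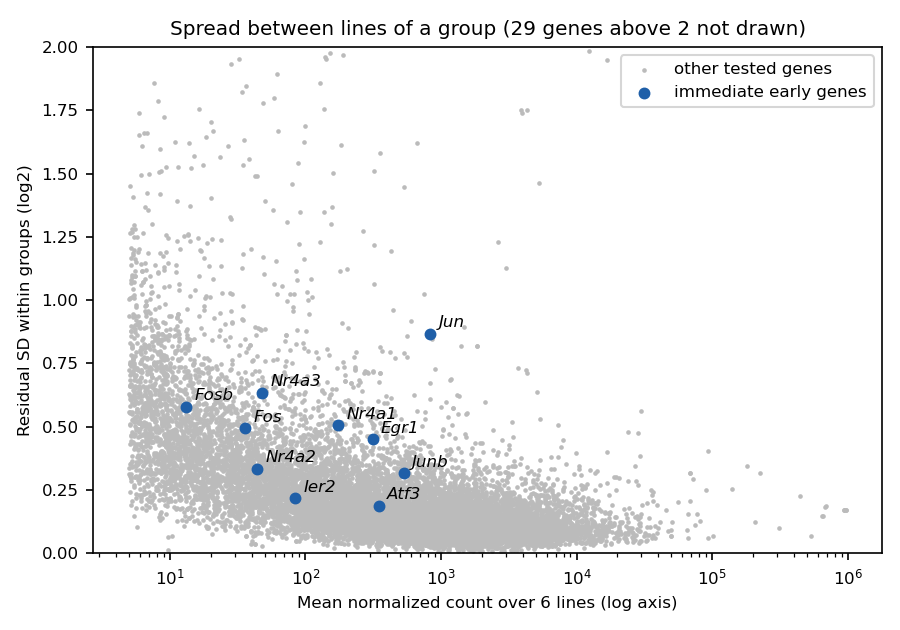
Residual SD within groups (log2 scale) against the mean normalized count over 6 lines (log axis) for the genes tested (grey) and the 10 immediate early genes (blue), with 29 genes above an SD of 2 not drawn. Jun, at 0.868, lies above nearly all genes of its level, while Ier2 and Atf3 lie within the cloud.

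The line with the highest value differed among members. By its value alone, control line 2 was highest for Nr4a3, Fosb, Jun, Junb and Atf3, control line 16 for Nr4a1, Nr4a2 and Fos, PWS line 19-1 for Egr1 and PWS line 3 for Ier2. The counting interval of the highest line lay clear of the next for 4 members, Nr4a1, Nr4a3, Jun and Junb, and overlapped it for the other 6. By value, line 2 was highest for 5 of 10 members and for 24.5% of all genes tested, and line 16 for 3 of 10 and 14.6%. Line 5-9, the parent of the others, was below the mean of the 6 lines for 9 of 10 members, with Fos as the exception, and so was PWS line 19-1, with Egr1 as the exception. Of all genes tested, between 49.3% and 50.1% lay below that mean in each line. PWS line 3 was above it for 7 members and below it for 3, and lay 0.018 above it on average on the log2 scale. PWS line 19-4 was below it for all 10 members, by 0.36 on average on the log2 scale, whereas line 2 was above it by 0.44 and line 16 by 0.25. Line 2 was nevertheless below it for 3 members (Nr4a1, Fos and Egr1) and line 16 for 4 (Fosb, Jun, Junb and Atf3). Gcg was also highest in PWS line 19-4, whereas the other markers of other cells, summed, were highest in line 2, and their part in these values was not tested.

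**Figure D4:**
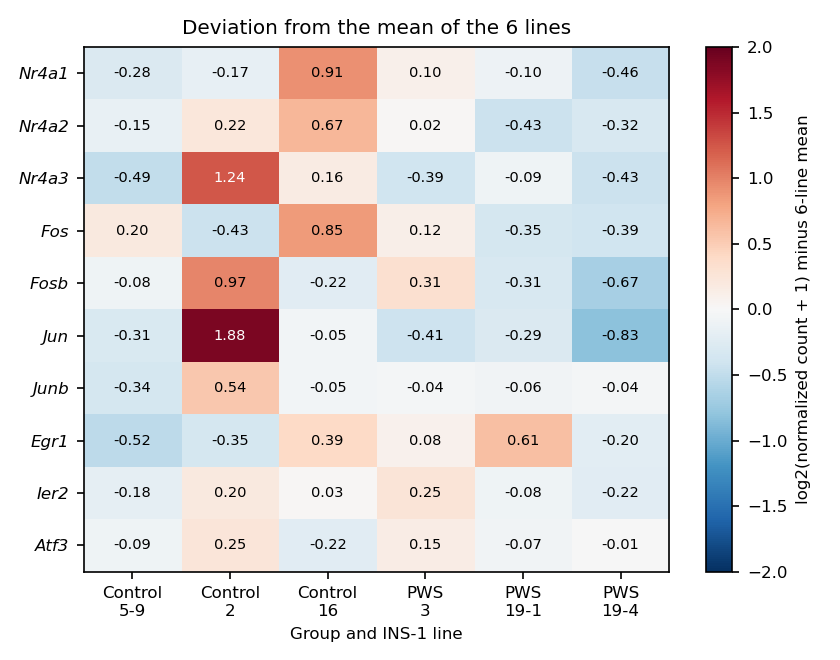
Deviation of each gene in each line from its own mean over the 6 lines, in log2(normalized count + 1), as colour (red above, blue below) and number. Control line 2 is deepest red for Jun (1.88) and Nr4a3 (1.24), control line 16 for Nr4a1 (0.91) and Fos (0.85), and line 19-4 is below 0 in every row.

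Pairs of members were compared over the 6 lines as a description, since all pairs share the lines and their depth. Pearson's r was 0.96 between Nr4a3 and Jun (Spearman's rho 0.83), 0.91 between Nr4a3 and Junb (rho 0.49) and 0.87 between Fosb and Jun (rho 0.49). Between Nr4a1 and Fos it was 0.85 (rho 0.54), and between Nr4a1 and Nr4a2 it was 0.83 (rho 0.54). By rank, Nr4a3 was as close to Nr4a1 and to Nr4a2 (rho 0.54 for each) as these were to each other. Jun and Junb had r of 0.86 but rho of only 0.09, with line 2 highest for both. The lowest r was -0.62, between Fos and Atf3.

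The 5 genes whose profile over the 6 lines was most like the mean of the 10 members were Hist1h2bo (r = 0.990), Lmo1 (0.986), Sys1 (0.986), Xbp1 (0.984) and Kcnh3 (0.982). They came from 10991 genes compared, those with a symbol and a mean of at least 50 normalized counts. Of those compared, 134 (1.22%) had r above 0.9. The r follows the shape of a profile and not the size of its differences. Hist1h2bo, the closest, measured 98.7, 142 and 130 normalized counts for lines 5-9, 2 and 16 (control), against 116, 110 and 98.2 for lines 3, 19-1 and 19-4 (PWS). Xbp1, further down this order and the factor spliced by IRE1 in the unfolded protein response, measured 2589, 3014 and 2905 in the control lines. In the PWS lines, in the same order, it measured 2794, 2725 and 2499.

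Other genes of the immediate early class were looked up in a list of 40, of which 34 were tested and Egr2, Egr3, Fosl1, Areg, Ccn2 and Zfp36l1 were below the minimum. None passed an adjusted p-value of 0.05 by limma or edgeR, and 24 were lower and 10 higher by sign, with a median log2 fold change of -0.19. At an unadjusted p-value under 0.05, limma called 5 lower (5.35% of all genes tested) and 1 higher (6% of all). The lowest, Klf2, a zinc finger factor, measured 51.3, 128 and 75.0 normalized counts for lines 5-9, 2 and 16 (control), against 33.7, 44.2 and 31.8 for lines 3, 19-1 and 19-4 (PWS). Its log2 fold change was -1.10 (SE 0.33, limma adjusted p = 0.306), the groups did not overlap, and line 2 was again highest. The highest was Hbegf, an EGF receptor ligand, at 0.43 (limma adjusted p = 0.603). Klf6 alone of the 34 passed by DESeq2 (adjusted p = 0.0377), beside 1.46% of all genes tested, with a limma log2 fold change of -0.48 (adjusted p = 0.269), and is named after its value was seen.

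By value alone, without regard to counting error, line 2 was highest for 22 of these 34 genes (64.7%), beside 5 of the 10 members and 24.5% of all genes tested. It was at least 2-fold above the next line for 2 of the 34, Ier5l and Npas4, and for 2 of the 10 members, Jun and Nr4a3, as it was for 0.481% of all genes tested. The median residual SD of the 34 was 0.262, between that of the members (0.474) and that of all genes tested (0.152).

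**Figure D5:**
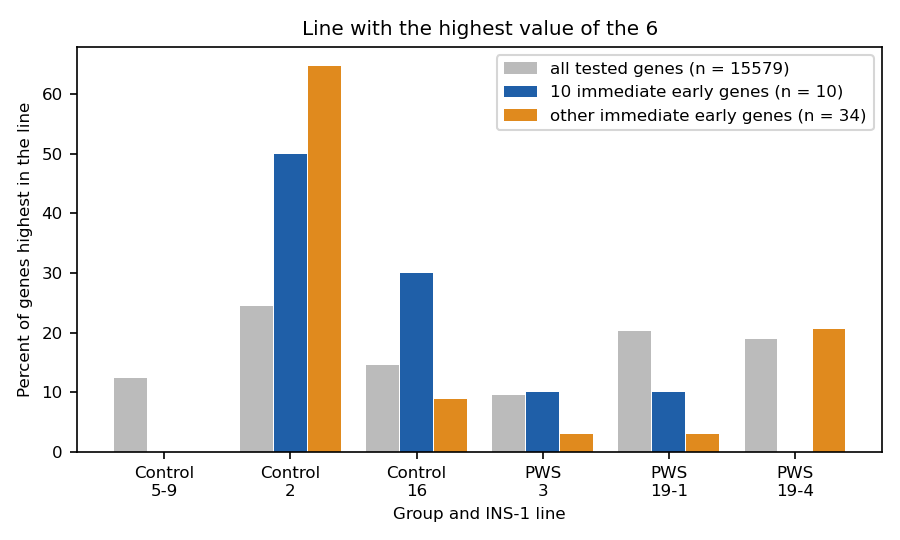
Percent of genes (bars from 0) for which each line had the highest of the 6 values, without regard to counting error, among all 15579 genes tested (grey), the 10 immediate early genes (blue) and the 34 other immediate early genes (orange). Control line 2 has 50% of the 10 and 64.7% of the 34, against 24.5% of all genes.

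Genes that carry signals to these promoters had a lower median spread than the members, though their levels were not matched and no test was made. Of 36 kinases, coactivators and factors such as CREB, SRF and their partners, 34 were tested (Ep300 and Mrtfb were not found under these symbols), with a median residual SD of 0.0999. Of this list 5 genes, Camk4 (residual SD 0.427), Nfatc4 (0.492), Mrtfa (0.249), Mef2c (0.240) and Camk2d (0.239), exceeded both members Ier2 and Atf3. Camk4 and Nfatc4 also exceeded Nr4a2 (0.334) and Junb (0.317), and Nfatc4 exceeded Egr1 (0.452). Rps6ka3 (0.214), Crtc3 (0.197) and Rps6ka2 (0.194) exceeded Atf3 (0.189) but not Ier2. All of these are named after their values were seen. None passed an adjusted p-value of 0.05 by limma, edgeR or DESeq2, and 13 were lower and 21 higher by sign, with a median log2 fold change of 0.06. At an unadjusted p-value under 0.05, limma called 5 higher (6% of all genes tested) and 0 lower (5.35%). The groups of lines did not overlap for 7 of the 34 (20.6%), all higher in PWS lines, beside 8.43% of all genes tested in that direction. None were lower without overlap, beside 9.01%. The lowest was the calcium-dependent kinase Camk4 at -0.33 (limma adjusted p = 0.665). The highest was Nfatc4 at 0.95 (limma adjusted p = 0.474), with fewer than 10 normalized counts in every line.

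Genes that end the immediate early response, the phosphatases of MAP kinases, the Spry and Spred inhibitors, the kinase Sik1 and the CREB relative Crem, gave 13 tested of 14, with 9 lower and 4 higher by sign and a median log2 fold change of -0.07. None passed by limma or edgeR, and at an unadjusted p-value under 0.05 limma called 2 lower and 1 higher, where 5.35% and 6% of all genes tested were called. Dusp4, a phosphatase of ERK and the lowest of the list, measured 1556, 2349 and 1947 normalized counts for lines 5-9, 2 and 16 (control), against 1256, 1204 and 960 for lines 3, 19-1 and 19-4 (PWS). The groups did not overlap, and the log2 fold change was -0.76 (SE 0.16, limma adjusted p = 0.233). By DESeq2 Dusp4 alone of the list passed (adjusted p = 0.000585), beside the same 1.46% of all genes tested. Spry4, the highest, had a log2 fold change of 0.64 (SE 0.21, limma adjusted p = 0.341).

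Genes for partner proteins of the members gave 15 tested of 19. The list holds bZIP proteins and RXR receptors, with which members form dimers, and also Nab1 and Nab2, which are not dimer partners. Log2 fold changes ran from Fosl2 at -0.35 (limma adjusted p = 0.804) to Atf7 at 0.56 (limma adjusted p = 0.333), 6 below and 9 above 0. Of 10 tested genes of the stress response in which Atf3 takes part, 4 were lower and 6 higher, from Ddit4 at -0.25 to Chac1 at 0.27. Of 7 tested heat shock genes, which are known to respond to heat and damaged proteins, 5 were lower and 2 higher, from Hspa1b at -0.21 to Hsph1 at 0.11. Of the reads of Hspa1b 0% were counted at a single place and feature, and of those of Hsp90aa1, also lower, 0.028%. The values of both are therefore uncertain. None of these 3 lists had a gene past an adjusted p-value of 0.05 by limma, edgeR or DESeq2, and at an unadjusted p-value under 0.05 limma called 1 gene in each, beside 11.3% of all genes tested.

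The ER chaperones offered a contrast in pattern between lines. All 12 were highest in control line 16 and below 0 by sign in the comparison, around a median log2 fold change of -0.50, from Sdf2l1 at -0.95 (limma adjusted p = 0.129) to Pdia3 at -0.19 (limma adjusted p = 0.564). None passed by limma or edgeR at an adjusted p-value of 0.05, 11 had an unadjusted limma p-value under 0.05 (11.3% of all genes tested), and 8 passed by DESeq2 (1.46% of all genes tested). These lines are the ones the study used to describe the chaperones, so the direction is not independent evidence. Of the 10 immediate early genes, Nr4a1, Nr4a2 and Fos were likewise highest in line 16. Of 11 tested beta-cell genes 9 were lower and 2 higher by sign, from Ins2 at -0.99 to Mafa at 0.10, and none passed by limma, edgeR or DESeq2, while limma called 3 at an unadjusted p-value under 0.05, beside the same 11.3%.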

How the data were processed

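Total RNA of 3 control and 3 PWS INS-1 lines was sequenced, 1 library per line, and columns were assigned to lines by group and number. The authors trimmed reads with cutadapt, aligned them with STAR 2.7.0e to the Ensembl rat assembly plus the transgene sequences, and tallied them with HTSeq 0.11.2, either at every place a read aligns (nonunique all, used for the main values) or at single places (nonunique none), or with RSEM 1.3.1. The deposited values are a signal: counts divided by DESeq2 size factors. The authors' columns of fold changes and p-values were not used. In both HTSeq countings 100% of values above 0 were whole multiples (within 0.001 read) of 1 read, and the recovered reads were given to edgeR 4.0.16 (quasi-likelihood test, 32 genes called) and DESeq2 1.42.0 (228 genes). Counting intervals are exact Poisson 95% intervals and cover counting error only.

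The main test was limma 3.58.1 in R 4.3.3 with an eBayes trend, applied to log2(normalized count + 1). It covered the 15579 genes whose mean reached 5, with Benjamini-Hochberg adjustment over all of them and a threshold of 0.05. It called 40 genes. With 3 lines against 3, an exact test of a single value cannot go below 0.1. Counts were simulated for the 15579 genes with 200 changed. Of the genes changed by 1 on the log2 scale limma recovered 72%, and of those changed by 2 it recovered 89%. It made 17 false calls, against 18 for edgeR and 43 for DESeq2. These percentages are over all changed genes and were not worked out for the members. The members had a median residual SD of 0.474, against 0.152 over all genes tested. The power to find such changes in the members is therefore not known. The members and gene lists were chosen with earlier results of these data known, so no test was made over a list. All members are named, and of each other list the members past the threshold and those with the highest and lowest log2 fold change, and up to 5 genes of the most similar profile.

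The alternatives were TMM scaling, pseudocounts of 0.5 and 5, no filter or a minimum mean of 50, both count tests, no trend, the other countings, leaving out single lines, blocking on the replicate number, averaging lines 19-1 and 19-4, and a threshold of 0.1.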

Additional observations from a re-analysis of the deposited data

How the results depend on the processing

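No member passed the threshold under any alternative, and adjusted p-values ranged from 0.346 to 0.727 for Jun. The 40 genes called by limma became 9 with a mean of at least 50, 228 with DESeq2, 16 with nonunique none counting and 12 with RSEM, and 33 to 55 with 1 line left out. The cause was not tested. The median log2 fold change of the members moved from -0.36 to -0.064 with a mean of at least 50, which leaves 6 members, and to between -0.50 and -0.10 with 1 line left out. Of 176 values of single members under alternatives, 168 kept their direction and 8 reversed: Ier2 without control line 2 (0.058), PWS line 19-1 (0.000648) or PWS line 19-4 (0.068) and with lines 19-1 and 19-4 averaged (0.035), Junb without control line 2 (0.15), Atf3 without control line 16 (-0.055) or PWS line 3 (-0.020), and Nr4a1 without control line 16 (0.071). With 1 line left out, Ier2 ranged from -0.17 to 0.068, Junb from -0.29 to 0.15, Atf3 from -0.055 to 0.18 and Nr4a1 from -0.53 to 0.071. The deviations of lines with the same number correlated at 0.00345, 0.0467 and 0.00514, so the numbers were not taken to pair the lines. With the replicate number as a block, limma called 36 genes and 0 members. Before adjustment 1 of 10 members, Jun, was under 0.05, beside 1711 of the 15579 genes tested, and Jun had a limma adjusted p of 0.346.

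Depth limits Fosb most, with 8 to 27 reads per line, and 1 library per line leaves the spread between cultures of a line unknown.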

Other observations

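Within the other immediate early genes, those lower in PWS lines with groups that did not overlap were Klf2, Rgs2, Gadd45b, Ier3 and Klf6, chosen after their values were seen. They make 5 of 34 (14.7%), beside 9.01% of all genes tested that were lower without overlap, and 0 of the 34 were higher without overlap, beside 8.43%. All of them were highest in control line 2. Rgs2, a brake on G protein signalling, measured 62.7, 90.9 and 56.5 normalized counts for lines 5-9, 2 and 16 (control), against 40.8, 40.7 and 42.7 for lines 3, 19-1 and 19-4 (PWS), a log2 fold change of -0.71 (SE 0.22, limma adjusted p = 0.321). Gadd45b, a stress sensor, gave 248, 374 and 244 for the control lines and 209, 166 and 185 for the PWS lines in that order, at -0.60 (SE 0.18, limma adjusted p = 0.320).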
